A study of Mus musculus with 10 samples.

Results

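The genes described are 10 transcriptional targets of p53 measured in mouse lung after bleomycin: Cdkn1a, Mdm2, Gdf15, Bax, Ccng1, Eda2r, Phlda3, Trp53inp1, Sesn2 and Bbc3. They were chosen by name as known p53 targets, and all 10 were found by symbol among the 33347 genes of the count table. The samples were 10 pieces of lung from wild-type mice, all given bleomycin, a drug that breaks DNA and is used to cause lung fibrosis. Of these, 5 came from mice injected with bone marrow cells of high aldehyde dehydrogenase activity (ALDHbr) and 5 from mice injected with marrow cells of low activity (ALDHdim). Every group therefore carried both the bleomycin and a cell transfer. No lung without bleomycin and no bleomycin lung without transferred cells was analysed here, so the data compare recipients of the 2 kinds of marrow cell and do not measure an induction of p53 targets by bleomycin. Strain, age, sex, dose and time after treatment were not in the labels, which also do not say that each sample came from a separate animal; p-values then measure the spread between these samples. Bulk lung RNA holds the host's own cells and any transferred cells that remained, and in such samples fewer cells of a type and less RNA per cell cannot be told apart.

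The transcription factor p53 is held at a low level in undamaged cells because MDM2, itself encoded by a p53 target, marks it for degradation. DNA breaks activate the kinase ATM, which stabilises p53, and p53 then raises genes that stop the cell cycle, promote apoptosis, limit growth signalling and feed back on p53 itself. In injured lung, p53 targets are known to be expressed in the transitional epithelial cells that arise as alveolar type 2 cells differentiate towards type 1 cells.

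A p53 response element is made of a pair of decamers, each built around a core that starts with C and ends with G. RefSeq promoter windows of GRCm38.p6, reaching from 250 bases before to 50 bases after a transcription start, were available for 9 of the 10 genes, in 13 windows. An element of 20 bases with no spacer and at most 2 mismatches, with the C and G of both cores kept, was found in 2 of these 13 windows and in 107 of all 32851 windows (0.326%). The element reads the same on both strands, so 1 search covers both. The 2 matches are shown because they lie in front of the long-known p53 target Cdkn1a and of Ccng1. Each stretch runs 5′ to 3′ on the gene's own strand, with the element in capitals.

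Cdkn1a, chr17:29090859-29090978, plus strand: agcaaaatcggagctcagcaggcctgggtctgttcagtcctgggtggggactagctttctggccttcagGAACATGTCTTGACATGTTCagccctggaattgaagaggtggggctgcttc

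Ccng1, chr11:40755412-40755531, minus strand: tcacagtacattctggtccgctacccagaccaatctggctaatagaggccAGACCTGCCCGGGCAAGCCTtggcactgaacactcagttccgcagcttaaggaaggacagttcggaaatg

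The first base of the Cdkn1a element lies 51 bases before the upstream start site at position 29090979 and 2841 bases before the downstream start at 29093769. In Ccng1 the element begins 195 bases before the start at 40755286. Each element had 1 mismatch to the consensus. The shorter motif CATGNNNNNNCATG, searched on both strands and contained in the Cdkn1a element, occurred in 1 of the 13 windows and in 0.712% of all windows. The looser motif CNNGNNNNNNCNNG was found in 13 of 13 windows, and 70.2% of all windows hold it. These matches describe the sequence of the windows alone; several p53 target genes are known to carry elements in their first introns, most of which lie outside the windows.

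Libraries held 588063 (ALDHbr 2) to 2002947 (ALDHdim 2) counts, and 10844 genes passed the filter on low counts. Alveolar type 2 markers, which define the lung here, summed to 26253 to 52288 CPM (counts scaled to library size) in ALDHbr libraries and to 23670 to 43485 CPM in ALDHdim ones. Levels below are CPM after TMM scaling; the method reads the 3′ end of transcripts, and levels are compared between libraries, not between genes. By edgeR's quasi-likelihood test 0 genes were higher in ALDHbr recipients (0% of 10844) and 0 were lower (0%) at an adjusted p under 0.05, with 402 genes (3.71%) at an unadjusted p under 0.05.

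No difference between the transfer groups was detected for any of the p53 target genes. Of the 10, 9 were tested and 1, Eda2r, fell below the filter; 0 of the 9 passed the threshold, 0 had an unadjusted p under 0.05, and the adjusted p of each was 0.999. The estimates were positive, meaning higher in ALDHbr recipients, for 5 genes and negative for 4, with a median log2 fold change of 0.11 against 0.01 over all genes tested. The groups of libraries overlapped for all 9, where 0.535% of tested genes had groups that did not overlap. What the libraries did show was a large spread of several of these genes within both groups, described gene by gene below.

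**Figure D1:**
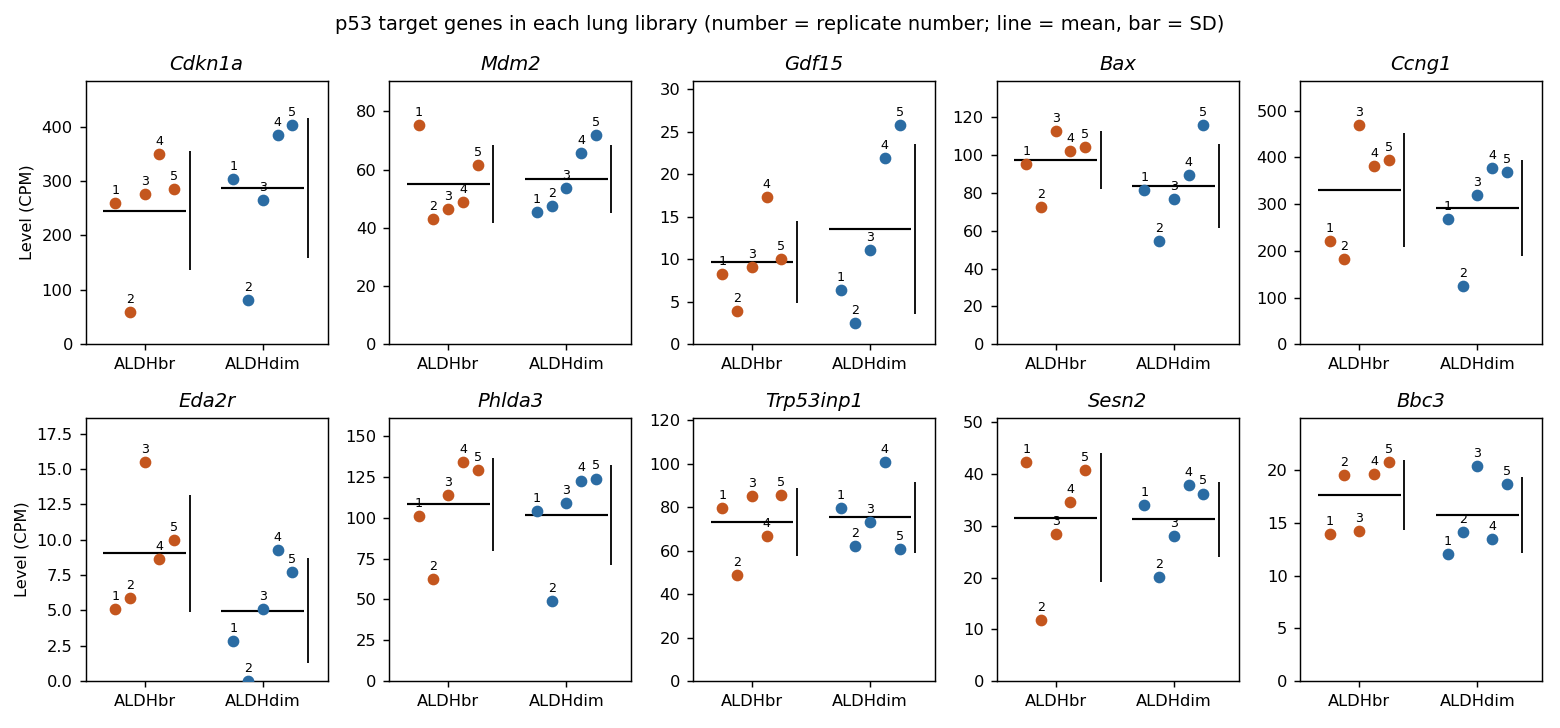
Level of each p53 target gene in CPM (vertical axes, each starting at 0) in the 5 ALDHbr (orange) and 5 ALDHdim (blue) libraries, each point labelled with its replicate number; horizontal lines are group means and vertical bars are ±1 SD. The groups overlap in every panel, and the libraries numbered 2 are the lowest of their group for Cdkn1a, Gdf15, Bax, Ccng1, Phlda3 and Sesn2.

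Among the cell cycle genes, Cdkn1a (chromosome 17, 29090976 to 29100727, plus strand, GRCm38) encodes p21, which binds cyclin and CDK complexes and stops cells before S phase. A gene model on the opposite strand, AC167363.2, overlaps its exons. Cdkn1a was at 259, 58.7, 277, 349 and 285 CPM in ALDHbr libraries 1 to 5 and at 305, 80.7, 265, 385 and 403 CPM in ALDHdim libraries 1 to 5. The 2 libraries numbered 2 stood far below the other 8, and without them the levels of both groups lay in 1 overlapping range. The group means were 246 ± 110 and 288 ± 129 CPM (SD over 5 libraries), for a log2 fold change of −0.20 (SE 0.48), and the 95% interval of the fold ran from 0.41 to 1.84. The highest library held 6.87 times the lowest but 1.56 times the third lowest. Its biological coefficient of variation within groups was 53.2% and lay at percentile 99 of all tested genes. Counting error was small beside this spread: the 30 counts of ALDHbr 2 give a 95% Clopper-Pearson interval of 39.6 to 83.8 CPM and the 160 counts of ALDHdim 2 one of 68.7 to 94.2 CPM. These intervals cover counting error only.

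Ccng1 (chromosome 11, 40748552 to 40755311, minus strand) encodes cyclin G1, which recruits a phosphatase to MDM2. Levels were 222, 182, 470, 381 and 394 CPM in ALDHbr libraries and 269, 125, 320, 377 and 368 CPM in ALDHdim libraries. The libraries numbered 2 were again lowest in each group, followed by those numbered 1, and the groups overlapped. Means were 330 ± 122 and 292 ± 103 CPM (log2 fold change 0.18, SE 0.31), with a fold interval of 0.71 to 1.83. The highest library held 3.75 times the lowest.

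Mdm2 (chromosome 10, 117688875 to 117710758, minus strand), the ubiquitin ligase of p53, spread far less. It was at 75.4, 43.0, 46.6, 48.8 and 61.6 CPM in ALDHbr libraries and at 45.4, 47.4, 53.6, 65.7 and 72.0 CPM in ALDHdim libraries. ALDHbr 2 was the lowest of all, on 22 counts with a Clopper-Pearson interval of 27.0 to 65.1 CPM. ALDHdim 2 was not the lowest of its group, and the highest library held 1.75 times the lowest. Group means were 55.1 ± 13.3 and 56.8 ± 11.6 CPM, and the fold interval of 0.76 to 1.30 bounds any group difference more tightly than for Cdkn1a.

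Of the apoptosis genes, Bax (chromosome 7, 45461697 to 45466898, minus strand) encodes the pore-forming protein of the mitochondrial outer membrane. Levels were 95, 72.4, 113, 102 and 104 CPM in ALDHbr libraries and 81.6, 54.5, 76.6, 89.3 and 116 CPM in ALDHdim libraries. ALDHdim 5 held the highest and ALDHdim 2 the lowest level, so the ALDHdim range contained every ALDHbr value. Bax had the smallest p of the 9, with a log2 fold change of 0.23 (SE 0.18, unadjusted p = 0.21, edgeR's quasi-likelihood test), and its fold interval was 0.91 to 1.52. A protein-coding model, Gm45808, shares exon sequence with Bax on the same strand, and the sources used here do not say how reads there were assigned.

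Bbc3 (chromosome 7, 16308393 to 16318205, plus strand) encodes PUMA, a BH3-only protein that frees BAX from its inhibitors. It was at 13.9, 19.6, 14.2, 19.7 and 20.8 CPM in ALDHbr libraries and at 12.1, 14.1, 20.4, 13.5 and 18.7 CPM in ALDHdim libraries. Neither library numbered 2 was the lowest of its group, and ALDHbr 2 was close to its group's highest. ALDHbr 2 held 10 counts, however, with a Clopper-Pearson interval of 9.38 to 36.0 CPM that covers the level of every other library. The log2 fold change was 0.16 (SE 0.23), and the highest library held 1.73 times the lowest, the smallest such ratio of the 9 tested genes. Bbc3 rested on 212 counts in all. The Clopper-Pearson intervals of its highest library, ALDHbr 5 (13.5 to 30.7 CPM), and its lowest, ALDHdim 1 (7.03 to 19.3 CPM), overlap.

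Eda2r (chromosome X, 97333840 to 97377216, minus strand) encodes the receptor of the EDA-A2 form of ectodysplasin and was the least measured of the set, with 81 counts in all. The counts were 8, 3, 12, 11 and 12 in ALDHbr libraries, or 5.07, 5.87, 15.5, 8.65 and 10.0 CPM, and 4, 0, 6, 11 and 14 in ALDHdim libraries, or 2.84, 0, 5.10, 9.26 and 7.69 CPM. The count of 0 in ALDHdim 2 allows a level of up to 1.51 CPM (3 counts in that library), or up to 1.86 CPM by its 95% Clopper-Pearson interval. The groups overlapped. With no filter on low counts, edgeR gave a log2 fold change of 0.82 (SE 0.43, adjusted p = 0.42 over all genes). With the filter kept, Eda2r passed it in some fits that left out libraries, and the estimate there ran from 0.47 (SE 0.70) without ALDHbr 3 and ALDHbr 5 to 1.18 (SE 0.62) without ALDHdim 5.

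Among genes of growth and stress control, Phlda3 (chromosome 1, 135766119 to 135769136, plus strand) encodes a PH-domain protein that competes with AKT for membrane lipids. Levels were 101, 62.6, 114, 135 and 129 CPM in ALDHbr libraries and 104, 48.9, 109, 123 and 124 CPM in ALDHdim libraries. The other 4 ALDHdim libraries lay close together, with ALDHdim 2 well below them. Means were 108 ± 28.7 and 102 ± 30.8 CPM, a log2 fold change of 0.12 (SE 0.24).

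Sesn2 (chromosome 4, 132492032 to 132510501, minus strand) encodes sestrin 2, an inhibitor of mTORC1 that also answers to ATF4. It was at 42.4, 11.7, 28.5, 34.6 and 40.8 CPM in ALDHbr libraries and at 34.1, 20.2, 28.1, 37.9 and 36.3 CPM in ALDHdim libraries. Both libraries numbered 2 were the lowest of their group, and the other 8 spanned 28.1 to 42.4 CPM. ALDHbr 2 held 6 counts, with a Clopper-Pearson interval of 4.31 to 25.5 CPM that overlaps that of ALDHbr 3 (17.8 to 43.1 CPM). Trp53inp1 (chromosome 4, 11156431 to 11174379, plus strand), whose protein binds p53 and acts in autophagy, was at 79.8, 48.9, 85.4, 66.9 and 85.8 CPM in ALDHbr libraries and at 79.5, 62.0, 73.1, 101 and 61.0 CPM in ALDHdim libraries. For Trp53inp1 ALDHdim 5, not ALDHdim 2, was the lowest of its group. The log2 fold changes were 0.11 (SE 0.25) for Sesn2 and −0.0062 (SE 0.17) for Trp53inp1.

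Gdf15 (chromosome 8, 70629393 to 70632456, minus strand) encodes a secreted stress hormone of the TGF-β superfamily that acts through the receptor GFRAL. It rested on 156 counts in all. Levels were 8.23, 3.91, 9.06, 17.3 and 10.0 CPM in ALDHbr libraries and 6.39, 2.52, 11.1, 21.9 and 25.8 CPM in ALDHdim libraries. The libraries numbered 2 held 2 and 5 counts, with Clopper-Pearson intervals of 0.474 to 14.1 and 0.819 to 5.88 CPM, and the first of these overlaps the intervals of the other 4 ALDHbr libraries. ALDHdim 4 and ALDHdim 5 were the highest, with intervals from 14.3 and 19 CPM upwards. Means were 9.70 ± 4.85 and 13.5 ± 9.99 CPM, and the log2 fold change of −0.37 (SE 0.54) had a fold interval of 0.35 to 1.73, the widest of the 9 on the log2 scale.

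**Figure D2:**
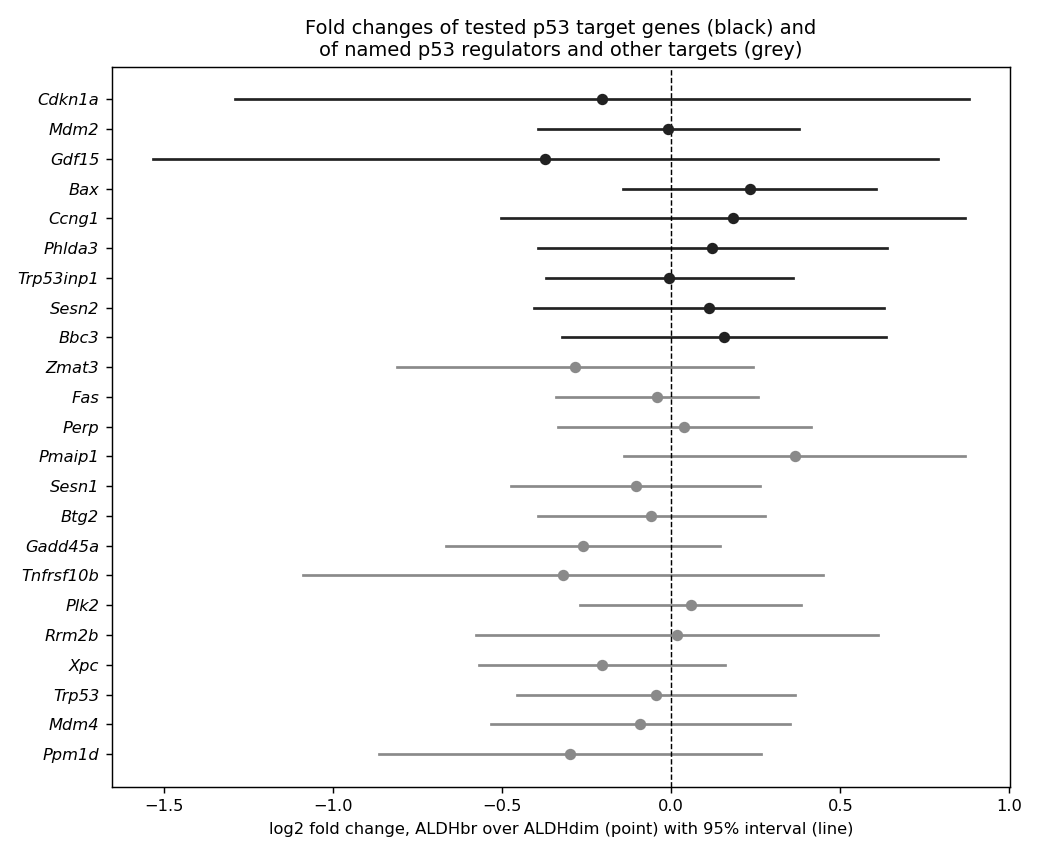
Log2 fold change of ALDHbr over ALDHdim (horizontal axis; points) with its 95% interval (lines) for the 9 tested p53 target genes (black) and for named p53 regulators and other p53 targets (grey), from edgeR. Every interval contains 0, and those of Cdkn1a and Gdf15 are the widest.

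Taking the libraries numbered 2 together, ALDHbr 2 lay below the other 4 libraries of its group for 8 of the 10 genes, where 26.2% of tested genes did so, and ALDHdim 2 for 7 of 10 (24.7% of tested genes). Both did so for 6 genes, Bax, Ccng1, Cdkn1a, Gdf15, Phlda3 and Sesn2, where 8.7% of tested genes did. For Cdkn1a the median of the other 4 libraries was 4.79 times ALDHbr 2 and 4.27 times ALDHdim 2. For Ccng1 the same ratios were 2.13 and 2.75 and for Phlda3 1.94 and 2.37. For Sesn2 they were 3.21, on 6 counts in ALDHbr 2, and 1.74. Bax differed least of the 6, at 1.43 and 1.57. These libraries were noticed after the values were seen, so the counts are a description with no test. ALDHbr 2 held the fewest counts of the 10 libraries and ALDHdim 2 the most. Spearman's rho between a gene's level and the total counts ran from −0.37 to 0.39 over the tested p53 targets. The adjusted permutation p-values were 0.888 to 0.947 over the 9 relations. With the low libraries at opposite ends of the depth range, a rank correlation cannot show whether depth bears on their levels. ALDHbr 2 also had the fewest genes detected, 17044, with 20542 in ALDHdim 2. The cause of the low levels in the libraries numbered 2 was not tested.

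The p53 targets tended to be high and low in the same libraries. Over the 36 pairs of the 9 tested genes, Spearman's rho of log2 CPM across the 10 libraries was positive in 33, with a median of 0.48 and a range from −0.21 to 0.85. By Spearman's rho 0 pairs passed a permutation test adjusted over the 36 pairs (9 at an unadjusted p under 0.05), the smallest adjusted p being 0.057. By Pearson's r 14 pairs passed, all of them positive. Leaving out ALDHbr 5 gave 4 passing pairs by Spearman's rho, and leaving out ALDHbr 3 or ALDHdim 1 gave 1 each. Much of this rested on the libraries numbered 2: the median r was 0.60 over all 10 libraries and 0.21 over the other 8, where 27 of 36 pairs stayed positive.

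Individual pairs differed in how far they depended on those libraries. Cdkn1a and Gdf15, the cell cycle inhibitor and the secreted hormone, had rho 0.83 (permutation p = 0.0047, adjusted 0.057) and r 0.85 (adjusted permutation p = 0.00564), and r was 0.87 over the 8 libraries left without ALDHbr 2 and ALDHdim 2. Ccng1 and Phlda3 had rho 0.85 (permutation p = 0.00299, adjusted 0.057) and r 0.93 (adjusted permutation p = 0.00564), with r 0.72 over the same 8. Gdf15 and Phlda3 had rho 0.83 (adjusted permutation p = 0.057) and r 0.86, with r 0.81 without the 2 libraries farthest in Gdf15, ALDHdim 2 and ALDHdim 5, and 0.68 without the libraries numbered 2. By contrast, Cdkn1a and Sesn2 had rho 0.53 and r 0.90 (adjusted permutation p = 0.0223) over all libraries but r 0.19 over the 8, so their relation rested on the libraries numbered 2. Cdkn1a and Phlda3 lay between, at rho 0.79 and r 0.93 (adjusted permutation p = 0.028) over 10 and r 0.62 over 8.

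Over all 10 libraries the pairs of Bbc3 had a lower r than all other pairs. Bbc3 rested on 212 counts in all, and the part of counting error in its r was not tested. Its 8 pairs had r between −0.44 and 0.23, and none was among the 14 that passed. Over the 8 libraries not numbered 2 its pairs had a median r of 0.16, from −0.52 with Trp53inp1 to 0.59 with Phlda3, close to the median of 0.21 over the 28 pairs without Bbc3. Mdm2 was also weakly tied to most of the set, with r of 0.54 to Cdkn1a and 0.26 to Ccng1; its closest relation was with Sesn2, at rho 0.81, r 0.69 (adjusted permutation p = 0.0459) and r 0.66 without the 2 libraries farthest from the median of Mdm2, ALDHbr 1 and ALDHdim 5. With Cdkn1a, 4 of the 8 other tested p53 targets had an r above 0.8, where 3.27% of all tested genes did, and over all tested genes r with Cdkn1a had a median of 0.0057 and quartiles of −0.34 and 0.37.

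**Figure D3:**
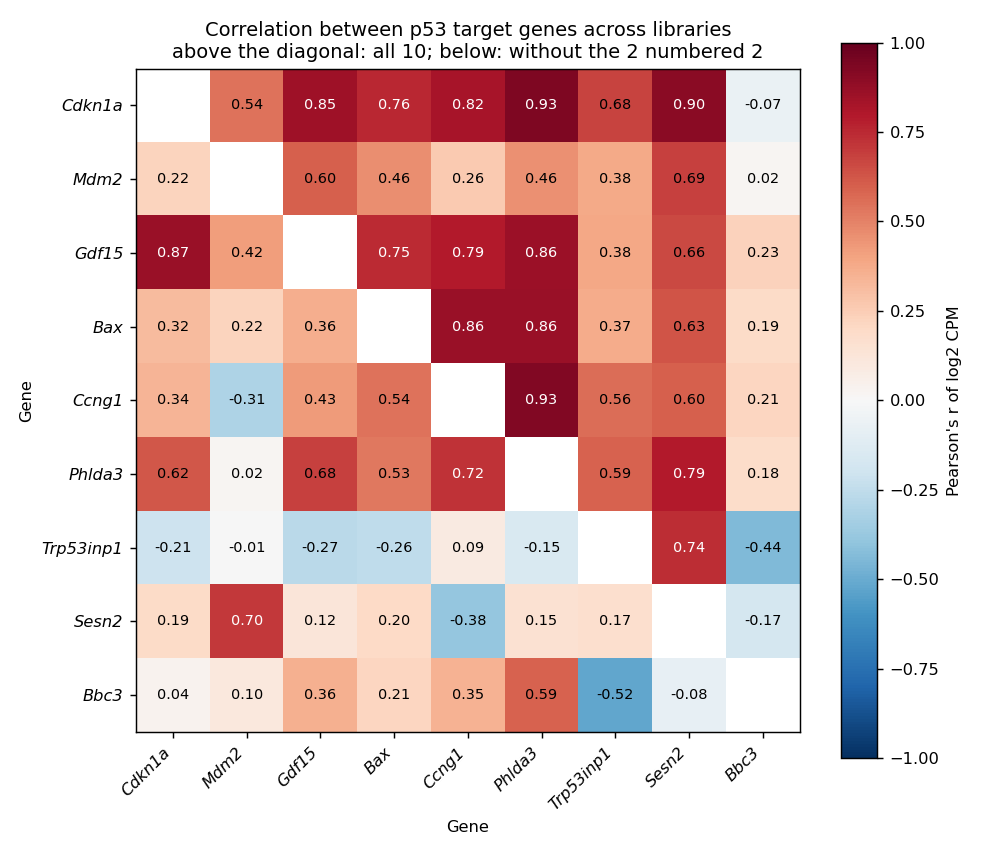
Pearson's r of log2 CPM for each pair of the 9 tested p53 target genes, over all 10 libraries above the diagonal and over the 8 libraries not numbered 2 below it, on a colour scale from −1 to 1. Most cells are red above the diagonal apart from the Bbc3 column, and most are paler below it; Cdkn1a with Gdf15 (0.85 and 0.87) kept its r, and Phlda3 with Bbc3 (0.18 and 0.59) is darker below.

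Genes outside the p53 lists with the pattern most like Cdkn1a over the 10 libraries were Ndnf (r 0.985, or 0.84 over the 8 libraries not numbered 2), Ppic (0.979 and 0.83), Gpnmb (0.967 and 0.33), Cdca8 (0.967 and 0.85) and Pirb (0.963 and 0.78). Most like the mean centred level of the 9 p53 targets were Ctsb (0.988 and 0.94) and Ctsd (0.987 and 0.90), which encode lysosomal proteases, Cd68 (0.980 and 0.90), C1qb (0.974 and 0.94) and Plekho2 (0.974 and 0.96). Cd68 and C1qb are markers of macrophages, and Gpnmb, Cd68 and C1qb stand in the macrophage list used next.

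Because whole lung mixes cell types, the level of Cdkn1a was set beside scores of other p53 pathway genes and of cell type markers, each the mean centred log2 CPM of a list's tested genes without the 10 p53 targets. These relations were added after the data were seen, and the lists were chosen with earlier results of these data known. Their p-values are therefore a description. Of 18 lists, 7 passed by Spearman's rho with permutation p-values adjusted over the 18. The macrophage and monocyte score had rho 0.95 (permutation p = 9e-05, adjusted 0.00162) and r 0.93 (adjusted permutation p = 0.00282), and r was 0.91 (exact permutation p = 0.00188, adjusted 0.017) without the 2 libraries farthest in Cdkn1a, ALDHbr 2 and ALDHdim 2. Of its 12 genes 8 went with Cdkn1a over the 10 libraries, with Gpnmb at r 0.97, Spp1 at 0.95 and Cd68 at 0.94, and 4 went against it, Marco (−0.61) and Chil3 (−0.60), which are known from alveolar macrophages, Ly6c2 (−0.35), a monocyte marker, and Fabp5 (−0.23). The transitional alveolar epithelium score, whose list includes the keratin gene Krt8, had rho 0.93 (adjusted permutation p = 0.00324) and r 0.91, or 0.94 over the 8 libraries (exact permutation p = 0.00154, adjusted 0.017), and all 14 of its genes had a positive r with Cdkn1a. Scores of mature alveolar cells ran the other way, at rho −0.90 (adjusted permutation p = 0.00462) for type 1 cells and −0.84 (adjusted permutation p = 0.0147) for type 2 cells. Over the 8 libraries r was −0.77 and −0.71. In the type 1 list 6 of 8 genes had a negative r with Cdkn1a, while Pdpn (0.51) and Aqp5 (0.03) did not. In the type 2 list 8 of 9 were negative, and Cxcl15 (0.29) was not. Fibroblast and matrix genes had rho 0.81 (adjusted permutation p = 0.0233) and r 0.67 over the 8. Within that list 10 of 12 genes had a positive r, among them the matrix genes Tnc (0.95), Col3a1 (0.89) and Fn1 (0.88), while the fibroblast markers Dcn (−0.49) and Pdgfra (−0.16) went against Cdkn1a.

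The score of the other p53 targets, 25 tested genes outside the 10, also moved with Cdkn1a. It had rho 0.85 (adjusted permutation p = 0.013), r 0.82 (adjusted permutation p = 0.00301) and r 0.70 over the 8 libraries. Its single genes were mixed: 15 of the 25 had a positive and 10 a negative r. Their median r was 0.11, beside 0.0057 over all tested genes. The list shares Sfn with the transitional epithelium list. The score of the cell cycle genes that p21 is known to repress moved with Cdkn1a too. It had rho 0.76 (adjusted permutation p = 0.0375) and r 0.91 over 10 libraries. That relation was positive and fell to r 0.38 over the 8. Mki67, a marker of dividing cells, stood at 5.87 CPM in ALDHbr 2, at 6.56 CPM in ALDHdim 2 and at up to 58.3 CPM elsewhere. The score of p53 and its regulators had rho 0.03, and its r of 0.50 over 10 libraries was −0.49 over 8. The senescence score had rho 0.28, the lymphocyte score 0.10 and the neutrophil score −0.04. Single genes differed from these scores. In the senescence list 7 of 8 tested genes had a positive r with Cdkn1a (median 0.57) and 1 a negative r (−0.82). A positive r was found for 2 of 7 lymphocyte and 1 of 7 neutrophil genes. Without ALDHdim 5, 3 of the lists passed (alveolar type 1 cells, macrophages and monocytes, and transitional epithelium), and without both libraries numbered 2, by Spearman's rho, 1 passed (macrophages and monocytes). With each group centred on its own mean, r was 0.94 for macrophages, 0.91 for transitional epithelium, −0.80 for type 1 cells and 0.82 for other p53 targets. The 12 macrophage markers summed to 1621 to 3784 CPM in ALDHbr libraries, against 1288 to 5214 CPM in the ALDHdim group, and the 14 transitional markers to 1852 to 3480 and 1684 to 3751 CPM, and 0 of these markers was at 0 in any library. The part of cell composition in the spread of the p53 targets was not tested.

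**Figure D4:**
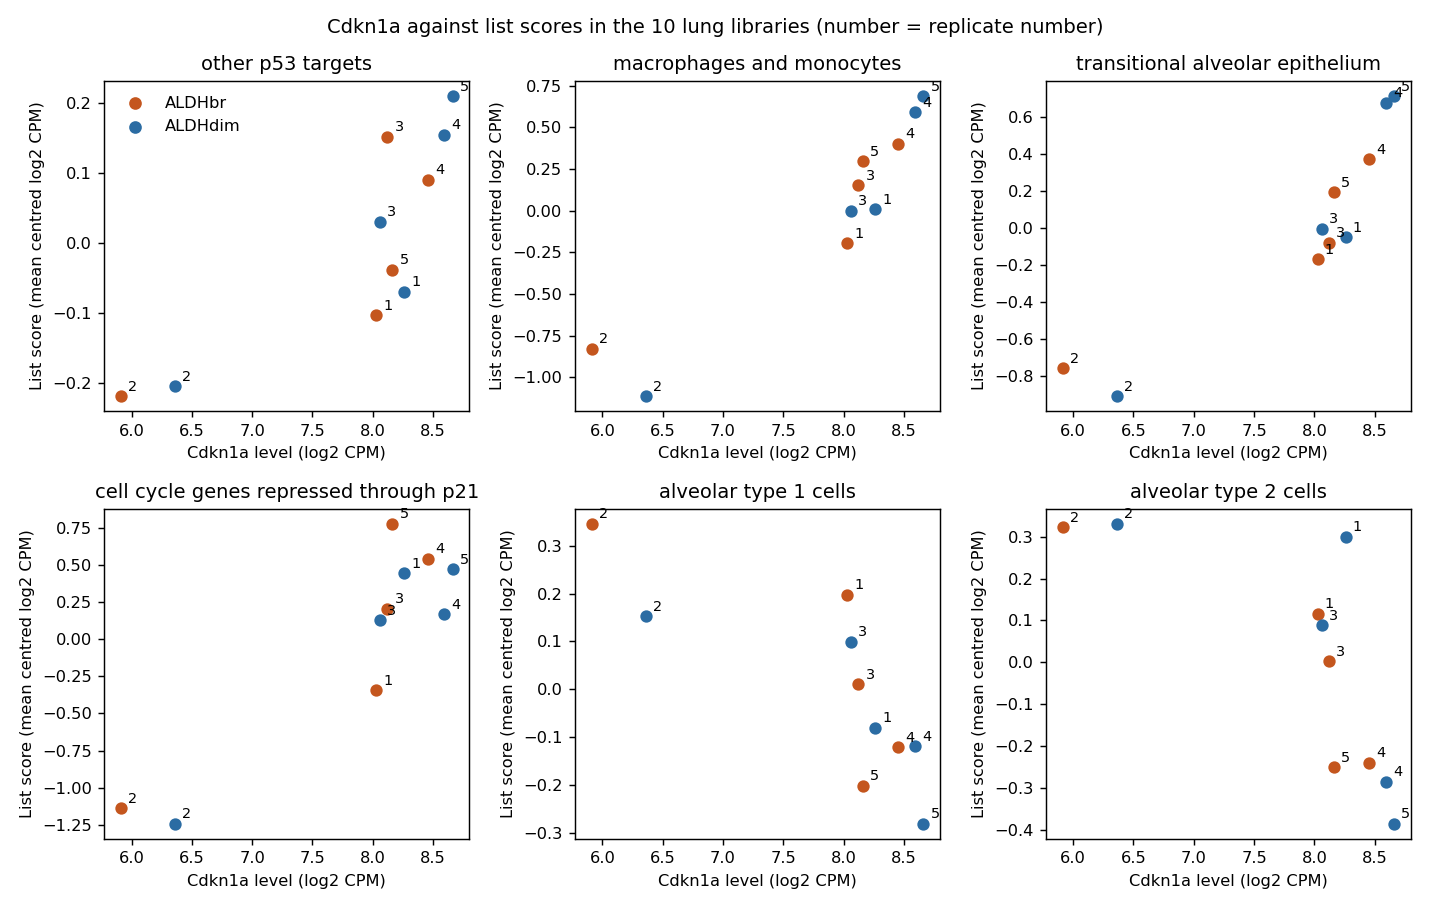
Level of Cdkn1a (log2 CPM, horizontal axes) against the scores of 6 gene lists (mean centred log2 CPM, vertical axes) in the 10 lung libraries, orange for ALDHbr and blue for ALDHdim, labelled by replicate number. The 2 libraries numbered 2 lie apart at low Cdkn1a in every panel; among the other 8 the macrophage and transitional epithelium scores still climb with Cdkn1a, while the cell cycle score does so weakly.

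In the rest of the p53 pathway too, no gene passed the test between the groups. Of 121 further genes in 8 lists, 91 were tested, and in every list 0 passed in either direction and 0 had an unadjusted p under 0.05 by edgeR's quasi-likelihood test. In the list of p53 and its regulators 11 of 17 genes were tested, 6 positive and 5 negative, with a median log2 fold change of 0.16. Trp53, which encodes p53, averaged 52.2 ± 15.9 CPM in recipients of ALDHbr cells and 55.2 ± 10.5 CPM with ALDHdim cells (log2 fold change −0.05, SE 0.19). Mdm4, the partner of MDM2, differed by −0.09 (SE 0.21) and Ppm1d, the phosphatase WIP1, by −0.30 (SE 0.27). The smallest p-values of that list belonged to the kinase gene Atm (0.86, SE 0.41) and to the kinase gene Hipk2 (−0.38, SE 0.20); Atm reached 33.6 CPM in ALDHbr 3, with 16.7 CPM in ALDHbr 5, the 2 libraries with the most genes detected, and at 3.91 to 10.1 CPM in the other 8.

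Of 30 other p53 targets, 25 were tested, 13 positive and 12 negative, with a median of 0.01. The estimates were −0.28 (SE 0.25) for Zmat3, an RNA-binding protein gene, −0.04 (SE 0.14) for the death receptor gene Fas, and −0.32 (SE 0.36) for the death receptor gene Tnfrsf10b. Perp, which encodes a desmosome protein, was at 0.04 (SE 0.18), and Pmaip1, which encodes NOXA, at 0.37 (SE 0.24). The sestrin gene Sesn1 was at −0.11 (SE 0.17) and Btg2, an antiproliferative gene, at −0.06 (SE 0.16). Gadd45a, Plk2, Rrm2b and Xpc, of DNA damage control and repair, lay between −0.26 and 0.06. Ddb2 had 4 counts in all and was not tested. Members of this list were unlike each other in how they followed Cdkn1a across libraries: r was 0.85 for Zmat3 and 0.68 for Tnfrsf10b, but 0.09 for Fas, −0.13 for Sesn1, −0.29 for Perp and −0.41 for Btg2.

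In the BCL2 family, partners of BAX and PUMA, 13 of 14 genes were tested, 7 positive and 6 negative (median 0.03). Bcl2 was at −0.04 (SE 0.18), Bcl2l1, which encodes BCL-XL, at 0.25 (SE 0.16), Mcl1 at −0.08 (SE 0.12) and the BH3-only gene Bid at −0.35 (SE 0.28). The integrated stress response, which can raise Sesn2 and Gdf15 without p53, had 12 of 16 genes tested, those 2 included, 7 positive and 5 negative (median 0.04). Its factors were at −0.10 (SE 0.13) for Atf4, −0.41 (SE 0.31) for Ddit3 and 0.03 (SE 0.26) for Atf3, and the asparagine synthetase gene Asns at 0.29 (SE 0.20). Atf3 followed Cdkn1a across libraries (r 0.90) and Atf4 ran against it (r −0.73).

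Downstream of p21, 15 of the 17 tested cell cycle genes had positive estimates and 2 negative, with a median of 0.17. Over all tested genes 5628 of 10844 were positive. The cell cycle median was −0.18 without ALDHbr 3 and ALDHbr 5, −0.05 without ALDHbr 5 alone and −0.05 without ALDHdim 2. It stayed positive when any other single library was left out. Mki67 was at 0.16 (SE 0.50), Top2a at 0.09 (SE 0.49), Pcna at 0.28 (SE 0.17) and Aurkb at −0.43 (SE 0.43). The cyclins and CDKs that p21 binds had 8 of 10 genes tested, 5 positive and 3 negative (median 0.03), with Ccnd3 at 0.38 (SE 0.23) and Cdk4 at −0.09 (SE 0.13). In the senescence list 8 of 13 were tested, 2 positive and 6 negative (median −0.03), with the metalloprotease gene Mmp3 at −0.22 (SE 0.16). Cdkn2a, the senescence marker that encodes p16, had 2 counts in all 10 libraries together. Genes of ectodysplasin and GDF15 signalling were barely measured, and 0 of 5 passed the filter. There were 29 counts for Eda, 22 for Edar, 31 for Edaradd and 24 for Ret. Gfral had 39 counts, of which 16 were in ALDHbr 3 and 14 in ALDHbr 5. Of the markers, Krt8 was at −0.13 (SE 0.17) with r 0.75 to Cdkn1a, and Col1a1, a collagen gene of fibroblasts, at −0.57 (SE 0.58) with r 0.71.

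**Figure D5:**
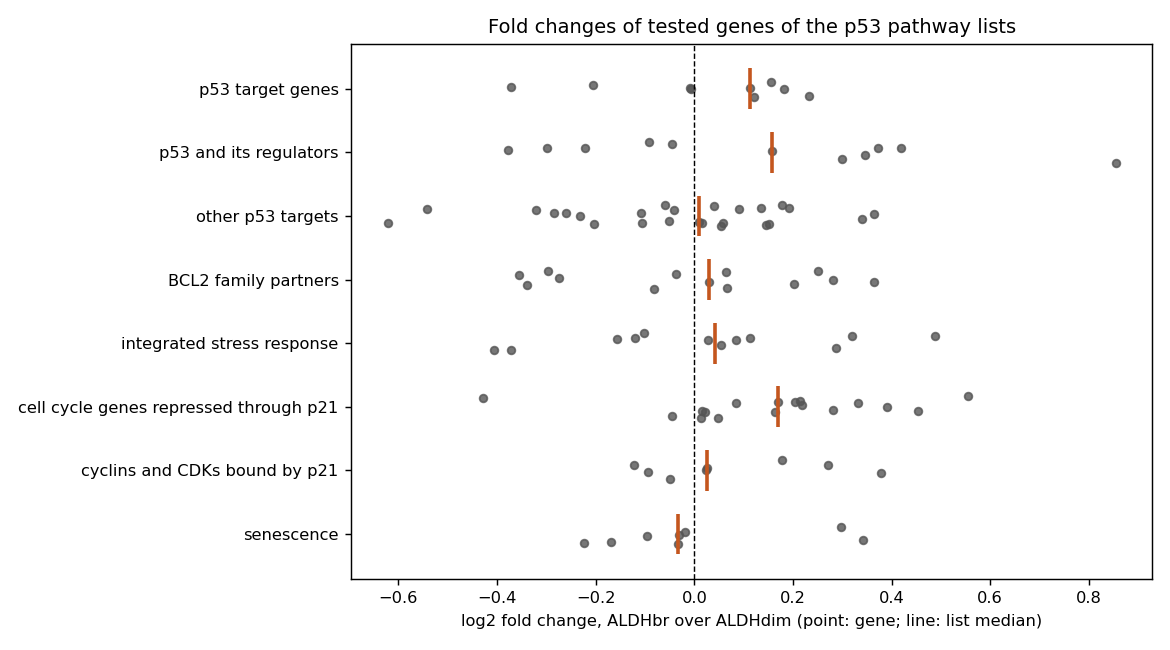
Log2 fold change of ALDHbr over ALDHdim (horizontal axis) for each tested gene of 8 p53 pathway lists (rows); grey points are genes and orange lines are list medians. The medians lie between −0.03 and 0.17, and 0 genes passed the threshold.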

How the data were processed

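RNA was measured by BRB-seq, a 3′ method with pooled barcoded samples, in 10 lung libraries, per the labels' protocols. The authors deposited raw counts per gene, whole numbers without normalization. Tools named in the submitters' processing notes were HISAT2 2.2.1, Trim Galore 0.6.7, featureCounts 2.0.1, UMI-tools and DESeq2, with the builds GRCm38 and GRCh38 and no roles. The sources used here do not say whether molecular identifiers were collapsed or strand was used, nor which annotation was. If identifiers were not collapsed, PCR copies add counts without molecules, and reads of antisense neighbours cannot be told apart. Gene positions are from GENCODE M21 on GRCm38, where all 33347 identifiers matched.

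The p53 target genes and the 21 gene lists were chosen with earlier results of these data known. Genes passed edgeR's filterByExpr (minimum count 10; 10844 genes, 97.3% of counts) and were tested with edgeR 4.0.16 (TMM, glmQLFit robust, glmQLFTest, ALDHbr over ALDHdim) in R 4.3.3, with Benjamini-Hochberg adjustment over all tested genes and a threshold of 0.05; the script was tested on simulated data. Levels are TMM-scaled CPM; log2 CPM used a prior count of 2. Correlations used two-sided permutation tests with 100000 resamples (exact for 8 libraries; scipy 1.17.1), adjusted within each family. The relations of Cdkn1a with list scores and the comparison of the libraries numbered 2 were added after seeing the data. No library pair of a group was a repeat deposit (lowest chi-square per degree of freedom 2.4). Named genes are the 10 targets, a fixed set from the lists, the gene of smallest p in each direction of each p53 pathway list, and the 5 most correlated with Cdkn1a and with the targets' mean, leaving out predicted and clone names. Further marker genes named beside the scores, and their r with Cdkn1a, were chosen after their values were seen. One gene that this rule names is not reported here. Alternatives were DESeq2 1.42.0 or its size factors, upper quartile scaling, other filters, limma-voom (limma 3.58.1), the replicate number as a term, removal of hemoglobin, immunoglobulin and mitochondrial genes, another prior count, and leaving out libraries. RefSeq promoter windows matched 9 of the 10 genes; Trp53inp1 had none.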

Additional observations from a re-analysis of the deposited data

Results flagged for a closer look

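In groups of 5 libraries, 36 sets of values (the levels of p53 targets and the list scores, by group) were searched for an end library whose distance from the next value exceeded 0.71 of the group's range, Dixon's critical value. It was exceeded in 4 sets, where chance gives about 1 in 20, or 1.8 sets. The sets share libraries, and some share genes, so these counts are a description with no test of an excess. Phlda3 was at 48.93 CPM in ALDHdim 2, with the other 4 ALDHdim libraries at 104 to 124 CPM. The mean centred level of the 9 p53 targets was −0.7251 in ALDHbr 2, with the other 4 ALDHbr libraries at 0.06 to 0.28. The score of the cell cycle genes repressed through p21 was −1.243 in ALDHdim 2, with the others at 0.13 to 0.47. The senescence score was −0.209 in ALDHdim 3, with the others at 0.03 to 0.12.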

How the results depend on the processing

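With no filter on low counts, 185 genes passed between the groups (182 higher and 3 lower in ALDHbr), 1 of them in the wider p53 lists and none of the 10 targets; under DESeq2 size factors, upper quartile scaling, DESeq2, limma-voom, a mean count of at least 10, and leaving out libraries, 0 passed (1465 at an unadjusted p under 0.05 by DESeq2, 687 by limma-voom). The median of all genes was 0.22 with no filter and 0.28 by DESeq2, over 33347 genes. The replicate numbers were not taken to pair the samples, since not every same-numbered pair correlated above 0.1, and whether they mark a shared batch was not settled: deviations from the group means correlated at 0.0616, 0.366, 0.15, 0.259 and 0.281 for numbers 1 to 5, and ALDHbr 1 and ALDHbr 4 correlated best with another number. With the replicate block 0 genes passed (727 unadjusted) and 0 of the p53 targets, with Cdkn1a at −0.24 (SE 0.13); no block was run for the correlations, which would leave 5 differences. Estimates changed sign for Mdm2 (0.023) and Ccng1 (−0.14) without ALDHbr 3 and ALDHbr 5, for Gdf15 with limma-voom (0.093) and for Trp53inp1 without both libraries numbered 2 (0.018). Leaving out each library in turn gave −0.45 to 0.022 for Cdkn1a, −0.16 to 0.10 for Mdm2, −0.69 to 0.070 for Gdf15, −0.014 to 0.32 for Ccng1, −0.063 to 0.24 for Phlda3, −0.074 to 0.11 for Trp53inp1 and −0.020 to 0.25 for Sesn2; Bax (0.10 to 0.39) and Bbc3 (0.07 to 0.25) kept their sign. Without ALDHdim 5, 1 of the p53 targets had an unadjusted p under 0.05 by edgeR's quasi-likelihood test, and 0 passed the threshold. Of the pairs, 14 passed by Pearson's r, 8 with groups centred, 1 without ALDHbr 3 and ALDHbr 5, and 0 to 4 leaving out each library. Lists related to Cdkn1a numbered 7, 1 without both libraries numbered 2, and 3 to 10 leaving out each library. The cause of these shifts was not tested. Eda2r rests on 81 counts, Gdf15 on 156 and Bbc3 on 212.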
